A study of Mus musculus with 12 samples.

Results

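The genes described here encode the subunits of the BK channel, the large-conductance potassium channel that opens with membrane depolarization and intracellular calcium. The 8 genes were chosen by symbol, with results of these data already known and because Lrrc52 was lower in all 3 mutant genotypes, out of 55348 genes in each count table. They are the pore gene Kcnma1, the β subunit genes Kcnmb1, Kcnmb2 and Kcnmb4, and the leucine-rich-repeat subunit genes Lrrc26, Lrrc38, Lrrc52 and Lrrc55. Poly-A RNA of the mouse organ of Corti at postnatal day 21 was sequenced in 4 genotypes, with 3 libraries each. Since wild-type animals were bred apart from the mutants, breeding and genotype cannot be told apart. Clrn1-/- mice lack an exon of Clrn1 in every cell, after germline deletion with PGK-cre. Clrn2-/- mice are homozygous for the clarinet allele, a tryptophan-to-stop mutation present in every cell, and Clrn1-/-Clrn2-/- mice come from crosses of both. Neither mutation is restricted to hair cells. The stria vascularis and modiolus were removed at dissection, and nothing states whether a library is 1 animal or a pool, so that p-values measure the spread between these libraries, which may be technical.

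In BK channels several copies of the pore subunit form the potassium pathway, and the auxiliary subunits set how much calcium and depolarization are needed to open it. β subunits slow or inactivate the current, and the leucine-rich-repeat subunits shift opening to more negative voltages, LRRC26 most strongly. Inner hair cells, the receptor cells that signal to the auditory nerve, acquire a fast BK current around the onset of hearing, and LRRC52 is the auxiliary subunit known to join the channel there.

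Libraries held 30008679 to 41049302 counts on genes, and 19052 genes were tested. Clrn1 was at 23.8 to 28.6 CPM (counts scaled to the library total on genes times its TMM factor) in wild-type, 25.8 to 31.5 in Clrn2-/-, 2.69 to 3.04 in Clrn1-/- and 1.77 to 2.71 in Clrn1-/-Clrn2-/- libraries. Clrn2 was at 1.89 to 3.24 CPM in wild-type and at 1.04 to 1.38 in Clrn2-/- libraries, and it was also low in Clrn1-/- (0.854 to 1.04). The 6 inner hair cell, 6 outer hair cell and 8 supporting cell markers listed were all detected. Neuron markers (10 genes) summed to 8319 to 13268 CPM and stria vascularis markers (6 genes) to 223 to 421 CPM, so RNA of both was present. Most of the stria sum was 1 gene, Atp1b2 (185 to 318 CPM). Another of these markers, Dct, ran from 12.2 to 60.5 CPM within wild-type libraries, so the amount was uneven. In whole tissue, fewer cells of a type and less RNA per cell cannot be told apart.

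Lrrc52, the gene that was lower in all mutants, and Lrrc55, the most abundant subunit gene, are shown by the 250 bases before their RefSeq start on GRCm38, read on the gene's own strand, with CpG dinucleotides in capitals. The Lrrc52 window is chr1:167466781-167467030 (minus strand), directly before the annotated gene.
Lrrc52: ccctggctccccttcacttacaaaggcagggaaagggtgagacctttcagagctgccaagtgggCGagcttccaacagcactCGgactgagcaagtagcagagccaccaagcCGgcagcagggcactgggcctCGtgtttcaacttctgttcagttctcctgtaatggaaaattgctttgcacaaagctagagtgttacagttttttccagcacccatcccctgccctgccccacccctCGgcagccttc
The Lrrc55 window is chr2:85198751-85199000 (minus strand), since RefSeq starts this gene upstream of the Gencode M21 start.
Lrrc55: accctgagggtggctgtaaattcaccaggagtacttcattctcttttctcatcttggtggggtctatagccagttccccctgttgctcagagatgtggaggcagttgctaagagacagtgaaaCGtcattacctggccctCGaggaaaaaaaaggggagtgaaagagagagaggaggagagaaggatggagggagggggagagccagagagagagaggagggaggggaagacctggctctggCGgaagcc

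These windows hold 5 and 3 CpG dinucleotides, against a median of 6 over 32851 mouse promoters of the same length, and their GC content is 56% and 54%, against a median of 52.4%. The window of the pore gene Kcnma1 differs, with 31 CpG dinucleotides and 79.2% GC, as does that of Kcnmb4 with 43 and 83.6%. In Gencode M21 all 250 bases of these 2 windows are exon of the gene itself, against 0 for Lrrc52 and Lrrc55, so unlike parts of genes are compared. Among 3 motifs searched on both strands, the thyroid hormone receptor half-site AGGTCA is in 14% of all promoters and in 1 of the 8 members, Lrrc38. The letters AATCAC of the GFI1 core are in 9.14% of promoters, and ATNNNTAAT of POU4F sites in 8.82%, and neither is in a member's window.

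On a scale of CPM per kilobase of annotated exon (FPKM), Lrrc55 stood at 20.1 ± 1.42 in wild-type mice (mean ± SD, n = 3), far above the pore gene. Kcnma1 was at 4.82 ± 0.288, Lrrc52 at 4.33 ± 0.553 and Kcnmb4 at 4.01 ± 0.357, and neighbours in this order did not differ beyond their spread. Kcnmb2 (1.74 ± 0.203) and Lrrc38 (1.17 ± 0.358) were lower. Kcnmb1 (0.141 ± 0.0548) and Lrrc26 (0.0982 ± 0.0154) were near the detection limit. The exon length is the union over all annotated transcripts, 16976 bases for Kcnma1 and 1143 for Lrrc52, so that a gene using short transcripts is understated. Lrrc52 was the third in this order in wild-type mice, the fifth in Clrn2-/- mice (1.58 ± 0.212) and the sixth in Clrn1-/- (0.571 ± 0.261) and Clrn1-/-Clrn2-/- mice (0.718 ± 0.094).

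**Figure D1:**
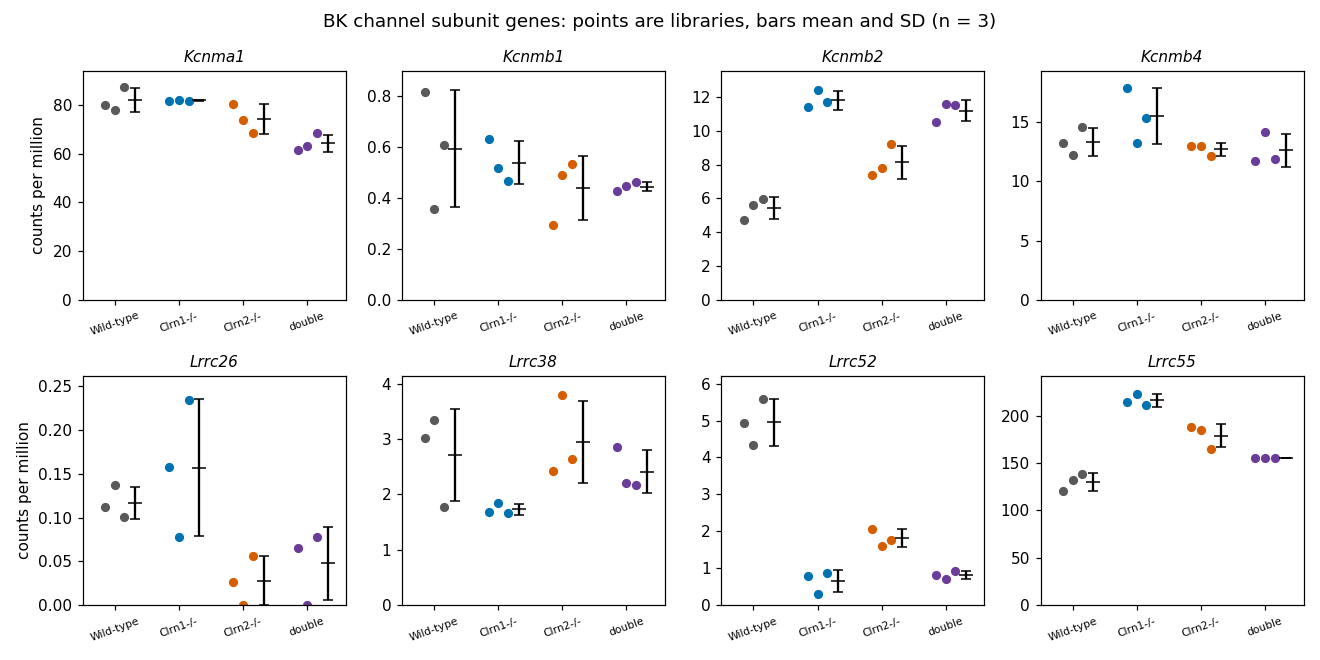
CPM of the 8 BK channel subunit genes by genotype, each panel with its own linear axis from 0 ("double" is Clrn1-/-Clrn2-/-). Points are libraries, and bars give mean and SD of 3. Lrrc52 is lower in every mutant library (0.31 to 2.07) than in wild-type (4.33 to 5.59), while Kcnmb2 and Lrrc55 are higher.

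Kcnma1, which encodes the pore-forming α subunit (chr14:23289431-24014491, minus strand), was at 80.1, 78.1 and 87.4 CPM in wild-type, 81.8, 82.1 and 81.7 in Clrn1-/- and 80.4, 73.7 and 68.5 in Clrn2-/- libraries. In Clrn1-/-Clrn2-/- libraries it was at 61.7, 63 and 68.3 CPM. The double mutants thus lay below all other libraries, and both single mutants overlapped with wild-type. Against wild-type the log2 fold changes were 0.00 (SE 0.0585), -0.14 (SE 0.0588) and -0.35 (SE 0.0592) in Clrn1-/-, Clrn2-/- and Clrn1-/-Clrn2-/- mice. They are given without a p-value because the genes were picked on these comparisons, which also share the wild-type libraries. Mutants compared with each other carry a test. Kcnma1 was lower in Clrn1-/-Clrn2-/- than in Clrn1-/- mice (log2 -0.35, edgeR adjusted p = 3.2e-04) and than in Clrn2-/- mice (log2 -0.21, edgeR adjusted p = 0.0176, with 0.000873 to 0.081 over the alternatives). The latter passed the threshold no longer without Clrn2-/- replicate 1 (0.081) or without Clrn1-/-Clrn2-/- replicate 1 (0.0593) or 2 (0.0539). Between the single mutants the log2 difference was 0.14, with a 95% interval of 0.02 to 0.27 and an edgeR adjusted p of 0.107. All differences of Kcnma1 were smaller than the 1.5-fold required for a call. Over 12 libraries and 15406 genes averaging 1 CPM or more, those most like Kcnma1 by Pearson correlation of log2 CPM were Sparcl1 (0.985), Kif3a (0.984), Chrnb2 (0.983), Hectd3 (0.982) and Slc45a1 (0.981), where all points share the same genotypes and libraries. Neuron marker sums were below wild-type in every mutant library. They were 12118 to 13268 CPM in wild-type, 10842 to 11337 in Clrn1-/-, 10365 to 12073 in Clrn2-/- and 8319 to 8485 in Clrn1-/-Clrn2-/- libraries. Called lower were 0, 0 and 4 of 10 in Clrn1-/-, Clrn2-/- and Clrn1-/-Clrn2-/- mice, beside 3.7%, 1.42% and 4.02% of all genes. None of the markers was at 0, and their part in the Kcnma1 values was not tested.

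Among the β subunit genes, Kcnmb2, whose product inactivates the channel (chr3:31902507-32200180, plus strand), was at 4.72, 5.62 and 5.95 CPM in wild-type libraries. It was at 11.4, 12.4 and 11.7 in Clrn1-/-, 7.4, 7.77 and 9.22 in Clrn2-/- and 10.5, 11.6 and 11.5 in Clrn1-/-Clrn2-/- libraries. Every mutant library was above every wild-type library. The log2 fold changes against wild-type were 1.12 (SE 0.102), 0.58 (SE 0.105) and 1.04 (SE 0.103), and that in Clrn2-/- mice was just under the 1.5-fold minimum, which it passed in 12 of 19 alternatives, 10 of them leaving out a single library. Kcnmb2 was higher in Clrn1-/- than in Clrn2-/- mice (log2 0.54, edgeR adjusted p = 0.00129), below the fold minimum in all libraries and past it without Clrn2-/- replicate 3 (log2 0.64). It was also higher in double mutants than in Clrn2-/- mice (log2 0.46, edgeR adjusted p = 0.00267), by less than the fold minimum. Clrn1-/-Clrn2-/- and Clrn1-/- mice were not told apart (log2 -0.08, 95% interval -0.28 to 0.13, edgeR adjusted p = 0.585). Kcnmb2 lies on the same chromosome as Clrn1, 26.6 Mb away.

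Kcnmb4, the β subunit gene typical of neurons (chr10:116417861-116473878, minus strand), varied little, with 12.2 to 14.6 CPM in wild-type, 13.2 to 17.9 in Clrn1-/-, 12.1 to 13 in Clrn2-/- and 11.7 to 14.2 in Clrn1-/-Clrn2-/- libraries. All 3 mutants overlapped with wild-type. Its value in double mutants against Clrn1-/- mice was -0.29 on the log2 scale (edgeR adjusted p = 0.0478, with 0.00525 to 0.921 over the alternatives). It was above 0.05 under limma-voom (0.0604), with the replicate block (0.0633) and with unstranded counts (0.921). With 1 library left out the adjusted p was 0.2 without Clrn1-/- replicate 1, 0.0783 without replicate 3, 0.0609 without Clrn2-/- replicate 1, and 0.136 and 0.133 without Clrn1-/-Clrn2-/- replicates 1 and 3. Its exons overlap the antisense genes Kcnmb4os1 and Kcnmb4os2, and counting without regard to strand left 442 of its 5800 counts. Kcnmb1, the β subunit gene of smooth muscle (chr11:33963013-33973641, plus strand), held 11 to 29 counts per library, or 0.296 to 0.815 CPM, and none of the mutant pairs passed the edgeR test. For Clrn1-/- against Clrn2-/- mice its log2 difference was 0.29 with a 95% interval of -0.41 to 0.99. The 8 smooth muscle and pericyte markers summed to 285 to 317 CPM in wild-type, 255 to 294 in Clrn1-/-, 228 to 237 in Clrn2-/- and 304 to 309 in Clrn1-/-Clrn2-/- libraries. Called lower were 1, 3 and 0 of 8 in the 3 mutants, beside 3.7%, 1.42% and 4.02% of all genes. In double mutants 1 was called higher, beside 5.88% of all genes.

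Lrrc52 (chr1:167445669-167466780, minus strand), whose product joins the channel in inner hair cells, was at 4.92, 4.33 and 5.59 CPM in wild-type libraries, from 175, 158 and 221 counts. It was at 0.791, 0.31 and 0.857 CPM in Clrn1-/- (25, 12 and 33 counts), 2.07, 1.59 and 1.77 in Clrn2-/- and 0.82, 0.713 and 0.928 in Clrn1-/-Clrn2-/- libraries. Wild-type libraries were thus the highest, Clrn2-/- libraries intermediate, and the others lowest without any overlap between these 3 levels. Log2 fold changes against wild-type were -2.93 (SE 0.241), -1.45 (SE 0.209) and -2.58 (SE 0.234) in Clrn1-/-, Clrn2-/- and Clrn1-/-Clrn2-/- mice, or 7.62-fold, 2.72-fold and 5.99-fold lower, which is the pattern that chose the gene. The genes called lower in all 3 mutants made up 0.572% of those tested, and nothing is read from this share, since the pattern chose Lrrc52.

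Between mutants, Lrrc52 was 2.8-fold lower in Clrn1-/- than in Clrn2-/- mice (log2 -1.49, SE 0.264, edgeR adjusted p = 0.00109), with 1.2e-09 to 0.00546 over the alternatives. It was 2.2-fold lower in Clrn1-/-Clrn2-/- than in Clrn2-/- mice (log2 -1.14, SE 0.256, edgeR adjusted p = 0.00372). Each of these differences held in 3 of 3 libraries against 3. Double mutants and Clrn1-/- mice overlapped, with a log2 difference of 0.35, a 95% interval of -0.28 to 0.98 and an edgeR adjusted p of 0.417. Without Clrn1-/- replicate 2, the library with 12 counts, that difference was -0.02. The log2 value of double mutants was 1.79 (SE 0.364) above the sum of both single values, given without a p-value because the gene was picked on comparisons it contains.

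The 6 inner hair cell markers differed among themselves. Their sum was 343 to 372 CPM in wild-type, 295 to 316 in Clrn1-/-, 326 to 373 in Clrn2-/- and 330 to 351 in Clrn1-/-Clrn2-/- libraries, and none of the 6 was at 0 over a genotype. Otof, the calcium sensor of vesicle release, was at 88 to 110 CPM in wild-type and 103 to 111 in double mutants (log2 0.12, edgeR adjusted p = 0.385). Slc17a8, the vesicular glutamate transporter of these cells, fell in Clrn1-/- mice, from 27.3 to 32.7 CPM down to 15 to 17 (log2 -0.89, edgeR adjusted p = 4.7e-06), and was at 29.9 to 33.9 in double mutants. Dnajc5b, a cysteine-string protein, fell in Clrn1-/- (log2 -2.11, edgeR adjusted p = 6.5e-06) and in Clrn1-/-Clrn2-/- mice (log2 -2.03, edgeR adjusted p = 3.7e-06), and had a value of -0.32 in Clrn2-/- mice (edgeR adjusted p = 0.296). Fgf8, a growth factor of inner hair cells, was at 0 to 0.0759 CPM in wild-type and 0.569 to 1.57 in the mutant libraries. Slc7a14, an amino acid transporter family gene, was at 137 to 141 CPM in wild-type and lower in every mutant library, with 123 to 132 in Clrn1-/-, 117 to 129 in Clrn2-/- and 100 to 103 in Clrn1-/-Clrn2-/- libraries. Its log2 values were -0.13, -0.18 and -0.47 (edgeR adjusted p = 0.039, 0.0127 and 5.8e-07), all under the fold minimum. Tbx2, which sets inner hair cell identity, was at 83.1 to 86.5 CPM in wild-type and 77.6 to 101 in the mutants.

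**Figure D2:**
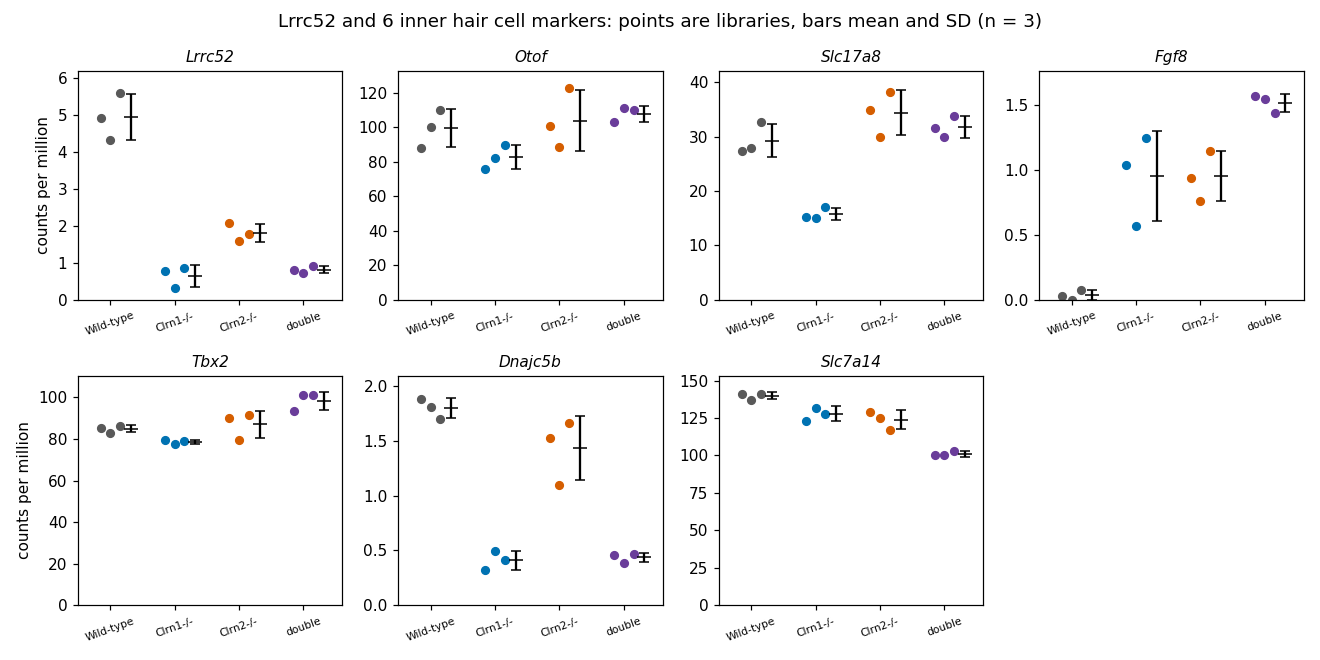
CPM of Lrrc52 and 6 inner hair cell markers by genotype, on linear axes from 0. Points are libraries, and bars give mean and SD of 3. Lrrc52 and Dnajc5b are low in Clrn1-/- and double mutants, Slc17a8 is low in Clrn1-/- mice (15 to 17), Fgf8 is higher in all mutants, and Otof libraries overlap between wild-type and each mutant.

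Red blood cell markers also moved. The 5 genes summed to 700 to 1139 CPM in wild-type, 278 to 379 in Clrn1-/-, 426 to 642 in Clrn2-/- and 535 to 714 in Clrn1-/-Clrn2-/- libraries. In the 3 mutants 5, 5 and 2 of 5 were called lower, beside 3.7%, 1.42% and 4.02% of all genes, and none was at 0. All 5 were also called lower in Clrn1-/- than in Clrn2-/- mice (2.34% of all genes) and higher in double mutants than in Clrn1-/- mice (4.62%). Their part in the Lrrc52 values was not tested. Genes near Lrrc52 were examined after its values were seen. Within 10 Mb on either side, 35 of 189 tested genes were called in Clrn1-/- against wild-type mice (18.5%, against 7.15% of all 18721 genes with a position), 6 in Clrn2-/- (3.17%, against 2.62%) and 31 in Clrn1-/-Clrn2-/- mice (16.4%, against 9.91%). The part of this chromosome region in the Lrrc52 values was not tested. The same window around Kcnmb2 gave 10.8%, 0% and 13.7%, that around Lrrc38 12.7%, 1.82% and 13.1%, and that around Lrrc55 8%, 3.2% and 10.4%. Genes most like Lrrc52 over the 12 libraries by Pearson correlation of log2 CPM were Ripor3 (0.974), A530016L24Rik (0.962), Bloc1s6 (0.957), Atpif1 (0.957) and Cox7b (0.952). Ripor3 was at 19.8 to 25 CPM in wild-type, 1.89 to 2.78 in Clrn1-/-, 6.34 to 7.11 in Clrn2-/- and 1.84 to 2.91 in double mutant libraries.

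Lrrc55, the most abundant of the subunit genes (chr2:85162334-85197197, minus strand), was at 120, 132 and 138 CPM in wild-type, 214, 223 and 211 in Clrn1-/-, 188, 185 and 165 in Clrn2-/- and 155, 155 and 155 in Clrn1-/-Clrn2-/- libraries. Each mutant library was above each wild-type library, and the genotypes followed one another without overlap, with Clrn1-/- highest and double mutants the lowest of the mutants. Log2 fold changes against wild-type were 0.73 (SE 0.0552), 0.46 (SE 0.0553) and 0.26 (SE 0.0554). Lrrc55 was lower in Clrn1-/-Clrn2-/- than in Clrn1-/- mice (log2 -0.48, edgeR adjusted p = 8.7e-06) and than in Clrn2-/- mice (log2 -0.21, edgeR adjusted p = 0.0102), and higher in Clrn1-/- than in Clrn2-/- mice (log2 0.27, edgeR adjusted p = 0.00304). All 3 differences were below the 1.5-fold minimum. Exons of Lrrc55 overlap those of the antisense genes Gm13713 and Gm13716, and the strand-specific counts were used.

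Lrrc38 (chr4:143349757-143371032, plus strand), a subunit with a weaker effect on opening, was at 3.03, 3.34 and 1.77 CPM in wild-type, 1.68, 1.84 and 1.66 in Clrn1-/-, 2.42, 3.8 and 2.64 in Clrn2-/- and 2.85, 2.2 and 2.17 in Clrn1-/-Clrn2-/- libraries. Wild-type replicate 3 was as low as the Clrn1-/- libraries, so those groups overlap. The log2 value for Clrn1-/- against wild-type mice was -0.65 (SE 0.23), just past the fold minimum, and lost its call in 13 of 19 alternatives, 9 of which left out a single library. The test of Clrn1-/- against Clrn2-/- mice gave -0.77 (SE 0.23, edgeR adjusted p = 0.0294) without overlap of libraries. That call was lost without Clrn1-/- replicate 1 (adjusted p = 0.0836), 2 (0.069) or 3 (0.0757) and without Clrn2-/- replicate 2 (0.145).

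Lrrc26, the subunit of secretory epithelia (chr2:25289915-25291180, plus strand), held 0 to 9 counts per library in the sense direction and did not pass the filter on low counts. The library with the most had 0.234 CPM, and both libraries without a count allow up to 0.0918 CPM (Clrn2-/- replicate 2) and 0.0892 CPM (Clrn1-/-Clrn2-/- replicate 2), taking 3 counts as the limit and counting error alone. Reads on the opposite strand of Lrrc26 gave 467 counts in all against 38 in the sense direction, and no annotated gene overlaps it in Gencode M21.

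**Figure D3:**
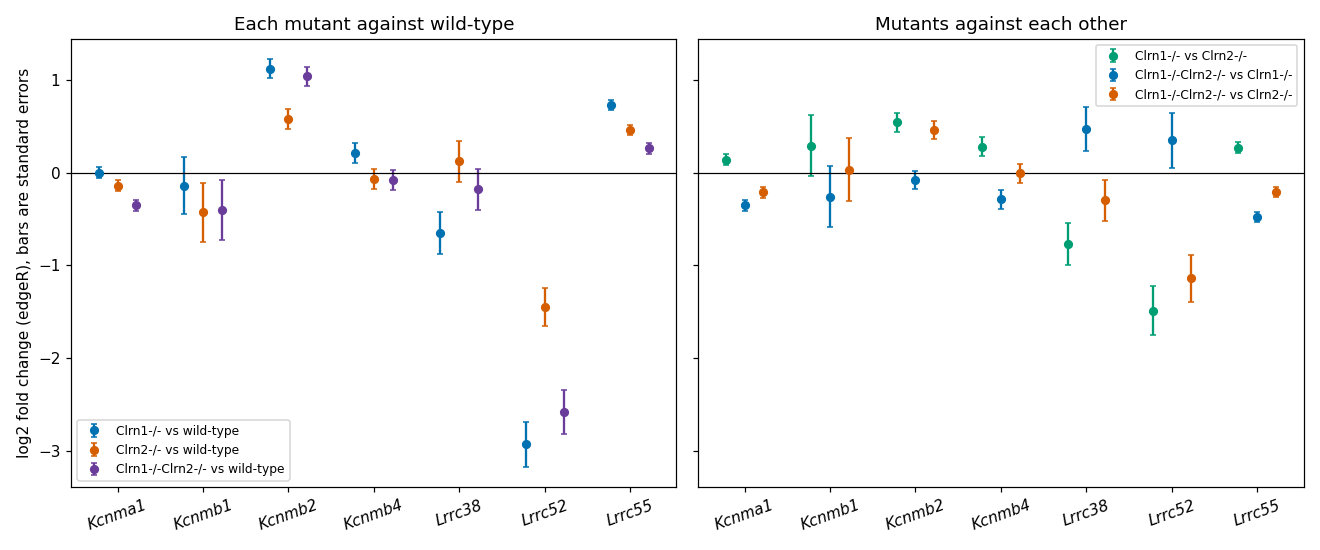
Log2 fold changes of the 7 tested BK channel subunit genes, from edgeR, with standard errors as bars. The left panel shows each mutant against wild-type, which is a description, and the right panel the mutants against each other, which were tested. Lrrc52 has the most negative values on both sides (-2.93 and -1.49), and Kcnmb2 the most positive against wild-type (1.12).

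Counted over the 7 members tested, 2 were called higher (Kcnmb2, Lrrc55) and 2 lower (Lrrc38, Lrrc52) in Clrn1-/- against wild-type mice, where 7.22% of all genes were called, 3.52% higher and 3.7% lower. One member, Lrrc52, was called in Clrn2-/- mice (background 2.66%, with 1.24% higher and 1.42% lower), and Kcnmb2 was added in 12 of 19 alternatives. In Clrn1-/-Clrn2-/- mice Kcnmb2 was called higher and Lrrc52 lower (background 9.9%, with 5.88% higher and 4.02% lower). For the interaction of both losses, where 5.5% of genes were called, 3.58% higher and 1.92% lower, Lrrc52 was called higher, and Kcnmb2 and Lrrc55 lower. Since the genes were picked on these comparisons, nothing is read from those counts. In the comparisons between mutants, 2 members (Lrrc38, Lrrc52) were called lower in Clrn1-/- than in Clrn2-/- mice, where 4.73% of genes were called, 2.4% higher and 2.34% lower, and 1 (Lrrc52) lower in Clrn1-/-Clrn2-/- than in Clrn2-/- mice (background 5.1%, with 3.67% higher and 1.43% lower). For Clrn1-/-Clrn2-/- against Clrn1-/- mice, where 7.23% of genes were called, 4.62% higher and 2.61% lower, edgeR, limma-voom and DESeq2 each called 0 members. Kcnma1, Kcnmb4 and Lrrc55 had an unadjusted edgeR p under 0.05. The share of all genes under that limit was not counted, so nothing is read from their number. The median log2 value of the members was 0.27, -0.26 and -0.21 for Clrn1-/- against Clrn2-/-, double against Clrn1-/- and double against Clrn2-/- mice, beside 0.00, 0.01 and 0.00 over all genes.

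Levels per exon length were also divided by that of Kcnma1 in the same library. In whole tissue the genes compared need not be in the same cells. Lrrc52 was at 82.3% to 95% of Kcnma1 in wild-type, 5.62% to 15.6% in Clrn1-/-, 32.1% to 38.4% in Clrn2-/- and 16.8% to 20.2% in Clrn1-/-Clrn2-/- libraries. The wild-type libraries were the highest, and each mutant genotype kept its own range. Kcnmb2 was at 32% to 39% of Kcnma1 in wild-type and 75.5% to 82.3%, 49.9% to 73.1% and 91.1% to 100% in the mutants in the same order. On this scale double mutants lay above Clrn1-/- mice, while in CPM of Kcnmb2 they overlapped (10.5 to 11.6 against 11.4 to 12.4). Kcnma1, the divisor, was lower in double mutants (61.7 to 68.3 CPM) than in Clrn1-/- mice (81.7 to 82.1). Lrrc55 was at 393% to 442% in wild-type, and the mutants covered 595% to 713%. Clrn2-/- (613% to 658%) and Clrn1-/-Clrn2-/- libraries (595% to 659%) overlapped on this scale, which they did not in CPM. These ratios are descriptions without a test.

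**Figure D4:**
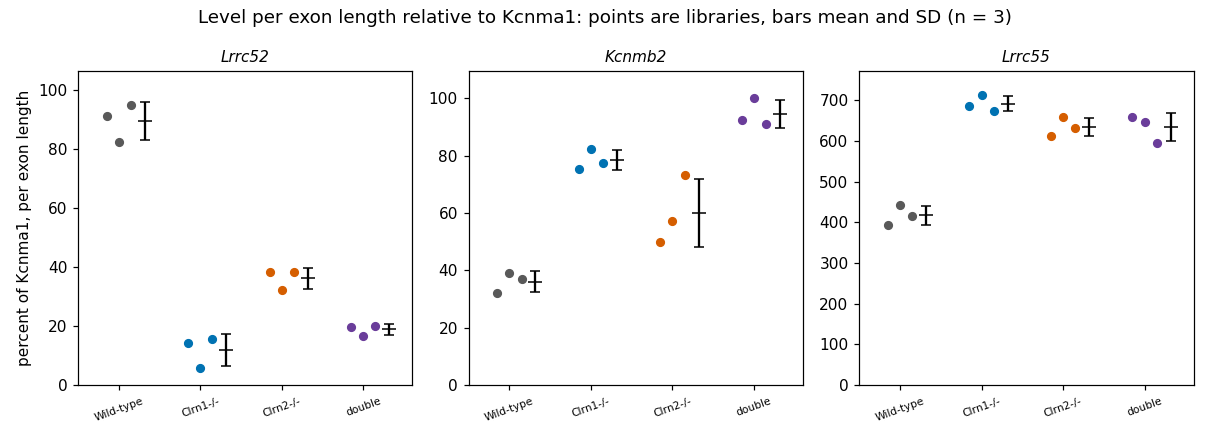
Level per exon length of Lrrc52, Kcnmb2 and Lrrc55 as a percentage of Kcnma1 in the same library, on linear axes from 0. Points are libraries, and bars give mean and SD of 3. Lrrc52 is at 82.3% to 95% in wild-type and at most 38.4% in any mutant library, while Kcnmb2 and Lrrc55 are higher in all mutants.

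Of 26 other genes of the pathway, 25 were tested. In Clrn1-/- against wild-type mice 3 were called, all higher (background 7.22%), in Clrn2-/- mice 2 were called, both higher (background 2.66%), and in Clrn1-/-Clrn2-/- mice 4 higher and 1 lower (background 9.9%). Their median log2 values were -0.03, -0.04 and -0.18, beside 0.00 over all genes in each comparison. None of 3 tested Slo-family genes was called by edgeR against wild-type. Only 1, the sodium-activated potassium channel Kcnt1, had an unadjusted edgeR p under 0.05, a limit at which the share of all genes was not counted. Its log2 value was -0.27 in Clrn2-/- mice (edgeR adjusted p = 0.089) and -0.53 in double mutants (edgeR adjusted p = 7.5e-04). In double mutants it was called without wild-type replicate 3 (log2 -0.63) or Clrn1-/-Clrn2-/- replicate 1 (log2 -0.59). The Slo-family genes include Kcnu1, the sperm channel that LRRC52 also joins, at 0.619 to 1.04 CPM in all libraries. Kcnmb3 was not tested.

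Calcium entry and release genes (11 tested) supply the calcium that opens BK channels. Ryr1, a calcium release channel best known from skeletal muscle, was at 0.309, 0.52 and 0.405 CPM in wild-type, 5.41 to 6.83 in Clrn1-/-, 4.04 to 5.9 in Clrn2-/- and 7.77 to 9.02 in Clrn1-/-Clrn2-/- libraries. It rose in all 3 mutants (log2 3.86, 3.52 and 4.35, edgeR adjusted p = 3.5e-09, 1.2e-07 and 4.4e-10) and was higher in double mutants than in Clrn2-/- mice (log2 0.84, edgeR adjusted p = 4.9e-04). Skeletal muscle markers (6 genes) summed to 2.08 to 3.37 CPM in wild-type and 1.49 to 2.88 CPM in double mutant libraries. Cacna1d, the pore of the hair cell calcium channel, rose in Clrn1-/- mice, from 55.4 to 58 CPM up to 91.3 to 102 (log2 0.78, edgeR adjusted p = 1.6e-08), with smaller differences in Clrn2-/- (0.48) and double mutants (0.41) that were under the fold minimum. Ryr2, another release channel, was at 51.9 to 57.5 CPM in Clrn1-/- and 33.3 to 36.5 CPM in Clrn1-/-Clrn2-/- libraries, a fall of double mutants against Clrn1-/- mice (log2 -0.67, edgeR adjusted p = 3.0e-07), with wild-type at 40.9 to 43.5.

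Among 5 other potassium channels of hair cells and small-conductance channels, 1 was called higher and 1 lower in double mutants (background 9.9%). In Clrn2-/- mice 1 was called higher (background 2.66%), and in Clrn1-/- mice 0 were called (background 7.22%). Kcna10, a voltage-gated channel of hair cells, rose in Clrn2-/- mice (log2 0.75, edgeR adjusted p = 1.4e-04) and in double mutants (log2 0.62, edgeR adjusted p = 1.5e-04), with the latter under the fold minimum without wild-type replicate 1 (0.49) or Clrn1-/-Clrn2-/- replicate 2 (0.57). Kcnn1, a small-conductance calcium-activated channel, fell in double mutants, from 15.8 to 18.1 CPM down to 9.36 to 10.6 (log2 -0.72, edgeR adjusted p = 1.2e-05).

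**Figure D5:**
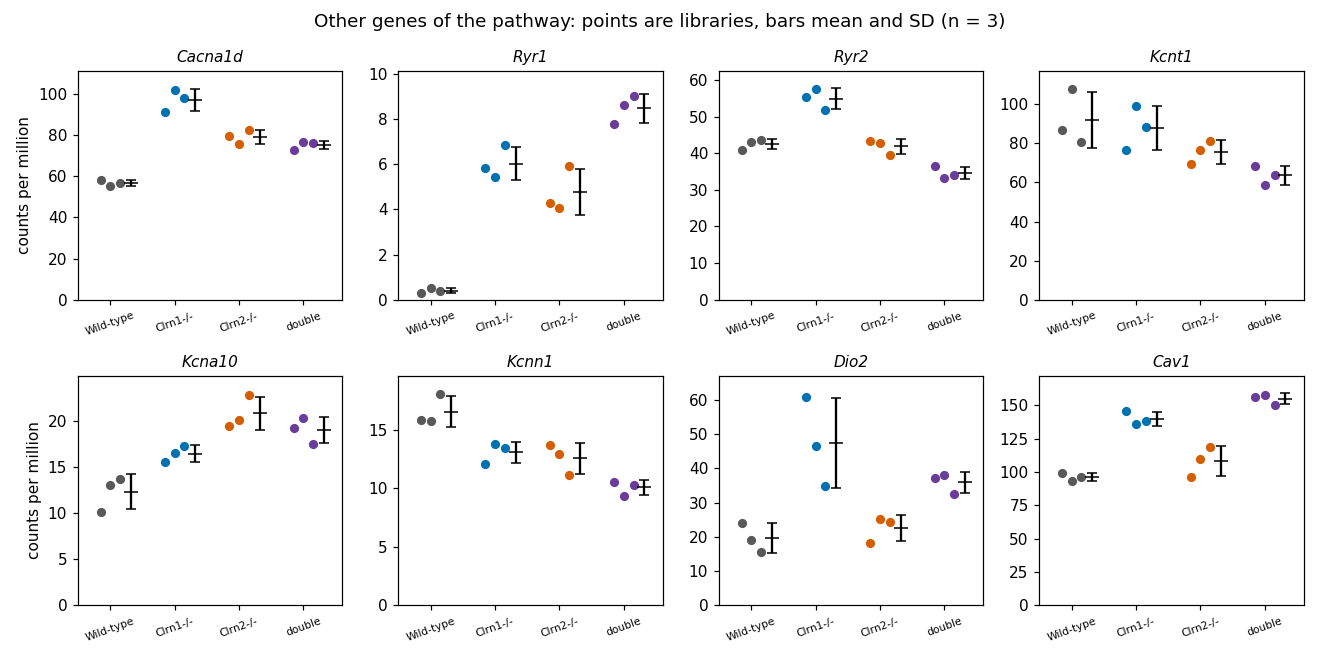
CPM of 8 other genes of the pathway by genotype, on linear axes from 0 ("double" is Clrn1-/-Clrn2-/-). Points are libraries, and bars give mean and SD of 3. Ryr1 is below 1 in wild-type and at 4.04 to 9.02 in the mutants, Cacna1d is highest in Clrn1-/- mice, and Kcnt1 in wild-type spreads from 80.6 to 108.

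The genes of 3 proteins known to bind the channel differed in direction. Lingo1, a neuronal leucine-rich-repeat protein, was at 84 to 94.6 CPM in wild-type, 71.3 to 75.9 in Clrn1-/-, 66.1 to 82.8 in Clrn2-/- and 55.1 to 63.1 in Clrn1-/-Clrn2-/- libraries, without overlap with wild-type. Its log2 values were -0.27, -0.31 and -0.58 (edgeR adjusted p = 0.0128, 0.0105 and 1.7e-05), under the fold minimum, which the last passed in 10 of 19 alternatives, 8 of them leaving out a single library. Crbn, the cereblon gene, had log2 values of -0.14, -0.04 and -0.18 (edgeR adjusted p = 0.0328, 0.661 and 0.00649). The caveolin gene Cav1 rose in double mutants, from 93.1 to 98.9 CPM up to 150 to 158 (log2 0.69, edgeR adjusted p = 2.8e-07), and was 0.55 higher on the log2 scale in Clrn1-/- mice, under the fold minimum. Thyroid hormone is known to be needed for hair cells to acquire the BK current. Dio2, the deiodinase that makes active hormone, rose in Clrn1-/- mice from 15.5 to 24.1 CPM up to 34.8 to 61 (log2 1.28, edgeR adjusted p = 8.3e-05) and in double mutants to 32.4 to 38.2 (log2 0.88, edgeR adjusted p = 0.00116). In Clrn2-/- mice Dio2 was at 18.2 to 25.2 CPM, lower than in Clrn1-/- (log2 difference 1.07, edgeR adjusted p = 6.3e-04). The hormone receptor genes Thra and Thrb gave no call against wild-type.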

How the data were processed

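RNA sequencing counts from 12 mouse organ of Corti libraries were used. The deposited counts per gene were made by the authors with STAR on GRCm38.p6 and Gencode M24 from strand-specific, poly-A selected paired reads, without normalization. The column matching the library strand was used (95.2% to 95.6% of stranded counts), and unassigned reads (13.5% to 15.8%) were left out. Counts were fitted in R 4.3.3 with edgeR 4.0.16 (quasi-likelihood test, TMM scaling, filterByExpr minimum count 10, genotype alone, all 12 libraries), with Benjamini-Hochberg adjustment over all 19052 genes. Genes were called at 1.5-fold or more with an adjusted p no higher than 0.05. Intervals of 95% use the fitted residual degrees of freedom. CPM were scaled to each library total times its TMM factor (0.963 to 1.02). Members and lists were chosen with earlier results of these data known. Named genes are all members, pathway genes called against wild-type, Cacna1d and Ryr1, 5 genes most like Lrrc52 and Kcnma1 each, Clrn1 and Clrn2, besides listed markers. Kcnu1, Kcnt1, Ryr2, Lingo1, Crbn, Thra and Thrb were added after their values were seen. Of the pathway lists 2 genes are not reported here and were left out of the list counts. Exon lengths came from Gencode M21 and promoters from RefSeq (8 of 8 members matched). Alternatives were limma-voom 3.58.1, DESeq2 1.42.0, library size alone, no filter, only 2 genotypes, a replicate block, unstranded counts and each library left out. Same-numbered libraries correlated above 0.1 in 7 of 18 pairs (-0.277 to 0.301), and in all 3 of wild-type with Clrn1-/- (0.269, 0.126, 0.105). Differently numbered libraries were not correlated for reference, and the labels name no pairing, so no pairing is read from the numbers.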

Additional observations from a re-analysis of the deposited data

Results flagged for a closer look

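Lrrc55 differed in opposite directions. Libraries without Clrn1 were all higher where Clrn2 was intact (211 to 223 against 120 to 138 CPM) and all lower where Clrn2 was mutant (155 against 165 to 188 CPM). Libraries without Clrn2 were likewise higher with Clrn1 intact (165 to 188 CPM) and lower without it (155 against 211 to 223 CPM). The interaction on the log2 scale was -0.94 (SE 0.078), given without a p-value because the genes were picked on comparisons it contains.

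The interaction was tested for the other genes of the pathway, and 3 passed the threshold. Ryr1 had an interaction of -3.02 on the log2 scale (edgeR adjusted p = 3.0e-06), since its level in double mutants (7.77 to 9.02 CPM) was well below the product of both single increases. For Cacna1d it was -0.85 (edgeR adjusted p = 1.2e-06), and for Ryr2 it was -0.65 (edgeR adjusted p = 4.9e-05). Over all genes 5.5% were called for the interaction.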

How the results depend on the processing

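Of 819 log2 values of members recomputed, 808 kept their sign, and no called value turned. The Lrrc52 values against wild-type stayed between -3.2 and -2.57 (Clrn1-/-), -1.55 and -1.35 (Clrn2-/-) and -2.7 and -2.49 (Clrn1-/-Clrn2-/-), and its calls between mutants held under all 19 alternatives. Members called in Clrn2-/- against wild-type mice went from 1 to 2 (Kcnmb2 added) with library size alone and with only the 2 genotypes compared, and ranged from 1 to 2 with 1 library left out. For Clrn1-/- against Clrn2-/- mice members called ranged from 1 to 3 with 1 library left out. Pathway genes called against wild-type ranged from 3 to 5 (Clrn1-/-, the most without wild-type replicate 1) and from 5 to 8 (Clrn1-/-Clrn2-/-, the most without wild-type replicate 2) with 1 library left out. Unstranded counts gave 1 member called for Clrn1-/-Clrn2-/- against Clrn1-/- mice, Lrrc26, whose reads lie mostly on the opposite strand, and moved Kcnmb4 to -0.23, -0.65 and -0.28 against wild-type, since reads shared with its antisense genes drop out. Library size alone moved the median of all genes by at most 0.04. With the replicate block, Lrrc52 was at -2.95, -1.45 and -2.59 against wild-type and at -1.50 for Clrn1-/- against Clrn2-/- mice, members called were 4, 1 and 2 against wild-type, and the block changed no call of a member or pathway gene, while the adjusted p of Kcnmb4 for Clrn1-/-Clrn2-/- against Clrn1-/- mice, under the fold minimum, went from 0.0478 to 0.0633. Low counts limit Kcnmb1 and Lrrc26, and breeding cannot be separated from genotype.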
